A study of Mus musculus with 6 samples.

Results

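The genes described here are Cd36, Vldlr, Plin4, G0s2, Inhbe and Adrb3, 6 of the 332 genes listed in a liver RNA-seq table, found by their symbols. They were put together because they act in lipid uptake, lipid droplets and the control of lipolysis, and because of how they differed between gigantol and vehicle livers in these same data. Their group differences are therefore given as a description, with no test. The 6 libraries came from the livers of 6 male Kunming mice, an outbred stock, aged 6 to 8 weeks. In 3 mice gigantol had been given by mouth at 10 mg/kg and in 3 an equal volume of the vehicle had been given, and all livers were taken 4 h after dosing. No transgene, deletion or further treatment is named for either group. Gigantol is a bibenzyl from Dendrobium orchids, and the series title calls it a dual agonist of PPARα and PPARγ, nuclear receptors that switch on fatty acid oxidation and fat storage genes. All 6 libraries carry the same batch label. PANC1, a human pancreatic cancer line, appears in the titles of the samples, but their organism and tissue are given as mouse liver and the gene IDs are of mouse. Each column was therefore grouped by its sample's treatment label.

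Liver cells take up fatty acids and lipoprotein remnants from blood, store triglyceride in droplets coated by perilipins, and release fatty acids again when the lipase ATGL cuts the stored triglyceride. Cd36 encodes a membrane receptor that takes up long-chain fatty acids, and Vldlr a lipoprotein receptor that binds apolipoprotein E-rich particles. Plin4 encodes a perilipin of the droplet surface, and G0s2 a small protein that binds ATGL and inhibits it. Inhbe encodes the subunit of activin E, a hormone secreted by liver that restrains lipolysis in fat tissue. Adrb3 encodes the β3-adrenergic receptor, which starts lipolysis in fat cells through cyclic AMP and is best known from fat tissue rather than liver.

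Levels are in CPM, read counts scaled to a common library size. If the unit is CPM, the libraries held close to 21.2 to 24.6 M reads in the gigantol group and 23.1 to 26.7 M reads in the vehicle group. This was worked out from the size of 1 read in the table, which was 0.0374 to 0.0471 CPM. The table lists genes that the authors had selected on these same libraries, by a fold change (absolute log2 value 1.00 or more) and an unadjusted p (highest 0.0499). Of the 332, 25.9% had an FDR under 0.05 in the authors' deposited table, and in 72.0% the 3 livers of a group lay entirely above or below the 3 of the other. Of the 6 genes, 4 had an FDR under 0.05 in the authors' deposited table (Inhbe, Adrb3, G0s2 and Plin4, all higher in gigantol livers, against 10.2% of the 332). The lower pair, Cd36 and Vldlr, did not, against 15.7% of the 332 that were lower by that rule. In all 6 the groups did not overlap, 4 higher and 2 lower, where 23.5% of the 332 were higher and 48.5% lower without overlap. Nothing is read from these counts, since the same contrast chose the genes. The 6 fold changes were not large for the table: their median absolute log2 fold change in the authors' deposited table was 1.18 against 1.44 for all listed genes, and by size Adrb3 ranked 55 of 332 and the other 5 ranked 171 to 270.

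**Figure D1:**
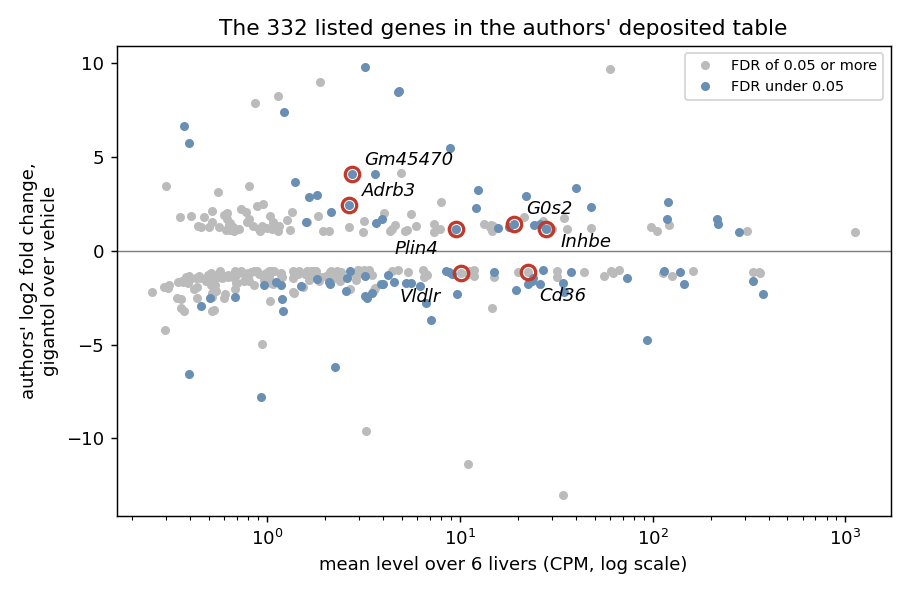
Each point is 1 of the 332 listed genes, with its mean level over the 6 livers (CPM, log scale) on the horizontal axis and the log2 fold change of the authors' deposited table, gigantol over vehicle, on the vertical axis. Circled are the 6 genes and Gm45470, which shares exon bases with Adrb3. Most of the 6 lie near the fold-change limit of the table, at absolute values of 1.14 to 1.41, and Adrb3 (2.44) and Gm45470 (4.09) lie further out.

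The uptake receptors were the members with lower levels in gigantol livers. Cd36 was at 11.3, 18.1 and 12.9 CPM in gigantol replicates 1, 2 and 3 and at 47.8, 25.7 and 19.7 CPM in vehicle replicates 1, 2 and 3. Its means were 14.1 ± 3.56 and 31.1 ± 14.8 CPM (SD, n = 3 each), which made the vehicle mean 2.21 times the gigantol mean. The groups did not overlap, but the lowest vehicle liver was only 1.09 times the highest gigantol liver, and vehicle replicate 1 stood well above the other 5. Without that liver the vehicle mean was 22.7 CPM, 1.61 times the gigantol mean. On the log2(CPM + 1) scale the limma difference of Cd36, gigantol minus vehicle, was −1.02 ± 0.48 (SE) with all livers and −0.67 without vehicle replicate 1. The authors' deposited table gives Cd36 a log2 fold change of −1.14 and an FDR of 0.112.

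Vldlr showed the same order of livers within the vehicle group. It was at 5.56, 6.05 and 7.16 CPM in gigantol replicates 1, 2 and 3 and at 23.8, 9.97 and 8.50 CPM in vehicle replicates 1, 2 and 3. The means were 6.25 ± 0.819 and 14.1 ± 8.45 CPM (SD, n = 3 each), a vehicle mean 2.25 times that of gigantol. The gigantol livers were close together and all below the vehicle livers, and vehicle replicate 1 was again the highest of the 6. The lowest vehicle liver was 1.19 times the highest gigantol liver. Without vehicle replicate 1 the vehicle mean of Vldlr was 9.24 CPM, 1.48 times the gigantol mean, and its limma difference went from −0.93 ± 0.46 (SE) to −0.50 on the log2(CPM + 1) scale. The authors' deposited table gives Vldlr a log2 fold change of −1.17 and an FDR of 0.186. Counting error was small beside this spread: the coefficient of variation among vehicle livers was 59.9%, of which counting alone would give 5.26%, and for Cd36 these were 47.6% and 3.55%.

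**Figure D2:**
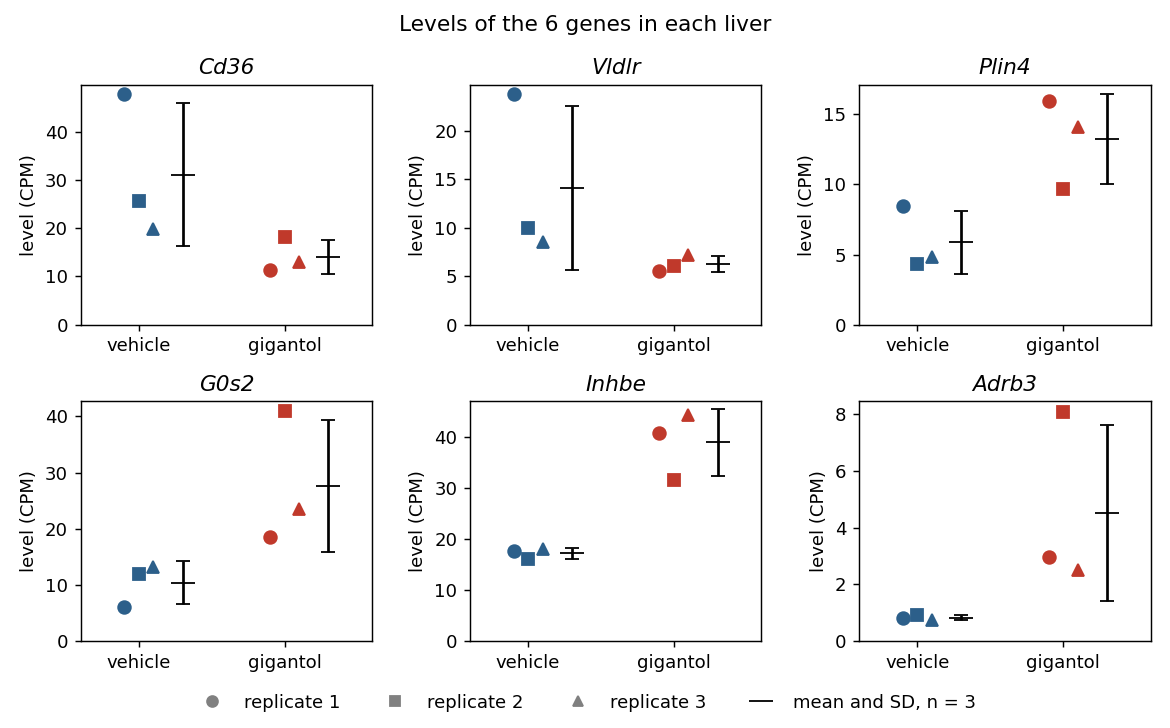
Level in CPM (vertical axes, each from 0) of each of the 6 genes in the 3 vehicle and 3 gigantol livers, with the mean and SD (n = 3) beside the points and 1 marker shape per replicate number. Cd36 and Vldlr are highest in vehicle replicate 1, at 47.8 and 23.8 CPM, and G0s2 and Adrb3 in gigantol replicate 2, at 40.9 and 8.07 CPM. In Inhbe all gigantol livers lie at 31.7 CPM or above and all vehicle livers at 18.0 CPM or below.

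The bases upstream of the starts of these receptor genes are shown because both genes were lower together in a study of a PPAR agonist. They are from RefSeq windows on GRCm38.p6, which reach from 250 bases before to 50 bases after a start. Such windows were found for 5 of the 6 genes, all but Adrb3, with a second start for Vldlr. Each is printed 5′ to 3′ up to the base before the start, and capitals mark motif matches. Cd36 lies on the minus strand at chr5:17835897-17836146 and Vldlr, at its first start, on the plus strand at chr19:27216234-27216483.
Cd36: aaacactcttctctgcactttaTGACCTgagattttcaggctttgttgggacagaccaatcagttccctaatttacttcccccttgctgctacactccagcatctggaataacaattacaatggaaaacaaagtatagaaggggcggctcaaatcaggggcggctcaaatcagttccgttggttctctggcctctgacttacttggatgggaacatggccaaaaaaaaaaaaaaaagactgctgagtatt
Vldlr: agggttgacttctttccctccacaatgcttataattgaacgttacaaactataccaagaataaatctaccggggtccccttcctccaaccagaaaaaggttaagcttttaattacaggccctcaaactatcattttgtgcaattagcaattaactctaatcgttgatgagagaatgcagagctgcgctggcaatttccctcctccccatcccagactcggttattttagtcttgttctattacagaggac
On both strands of all 32851 RefSeq windows, the direct repeat that PPAR binds with RXR, which is AGGTCA followed after 1 base by AGGTCA, was in 0.0396%, and a single AGGTCA, which the repeat contains, in 16.3%. The 6 windows of these genes held 0 copies of the repeat, and the Cd36 window alone held the single AGGTCA, with its first base 228 bases before the start. The first Vldlr window held none of the 7 motifs searched. The others searched were the E-box CACGTG (in 7.15% of all windows), the STAT5 element TTCNNNGAA (8.30%), the FOXO element GTAAACA (3.65%), the cyclic AMP response element TGACGTCA (1.79%) and a C/EBP-ATF element that is described with Inhbe. Matches to letters in these windows are no evidence of binding, and distal elements were not searched. In GENCODE M21 Cd36 has 6 annotated transcripts and Vldlr 8, and any start outside these windows was not searched either.

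Plin4, the droplet coat gene, was higher in gigantol livers. It was at 15.9, 9.67 and 14.1 CPM in gigantol replicates 1, 2 and 3 and at 8.46, 4.30 and 4.86 CPM in vehicle replicates 1, 2 and 3. The means were 13.2 ± 3.21 and 5.87 ± 2.26 CPM (SD, n = 3 each), 2.25 times higher with gigantol. The groups did not overlap, though the lowest gigantol liver, replicate 2, was 1.14 times vehicle replicate 1, the highest of its group. The limma difference was 1.07 ± 0.43 (SE) on the log2(CPM + 1) scale, and leaving out 1 liver at a time moved it between 0.91 and 1.33. The authors' deposited table lists Plin4 at a log2 fold change of 1.18 and an FDR of 0.0473. Of the 24 droplet genes listed for comparison, among them Plin1, Plin2, Plin3, Plin5 and the Cide genes, Plin4 was the only one analysed here.

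G0s2, the ATGL inhibitor, was also higher, with a wide spread in both groups. It was at 18.5, 40.9 and 23.5 CPM in gigantol replicates 1, 2 and 3 and at 6.03, 12.0 and 13.3 CPM in vehicle replicates 1, 2 and 3. The means were 27.7 ± 11.8 and 10.4 ± 3.87 CPM (SD, n = 3 each), a ratio of 2.65. Every gigantol liver was above every vehicle liver, the lowest by 1.39 times the highest vehicle liver, and gigantol replicate 2 was the highest of all. The ratio was 2.01 without gigantol replicate 2 and 2.19 without vehicle replicate 1, the lowest liver. The limma difference of G0s2 was 1.31 ± 0.49 (SE) on the log2(CPM + 1) scale, and the authors' deposited table gives a log2 fold change of 1.41 and an FDR of 0.0368. G0s2 was the only one of 24 lipolysis genes analysed here. Its target Pnpla2, which encodes ATGL, and the other lipases on that list were not analysed here.

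Inhbe had the closest replicates of the 6 genes relative to its difference. It was at 40.8, 31.7 and 44.4 CPM in gigantol replicates 1, 2 and 3 and at 17.7, 16.0 and 18.0 CPM in vehicle replicates 1, 2 and 3. The means were 38.9 ± 6.55 and 17.3 ± 1.07 CPM (SD, n = 3 each), 2.26 times higher with gigantol. The lowest gigantol liver was 1.76 times the highest vehicle liver, and leaving out any 1 of the 6 livers kept the ratio between 2.10 and 2.47. The vehicle livers varied by 6.20%, where counting alone would give 4.82%. The limma difference was 1.12 ± 0.44 (SE) on the log2(CPM + 1) scale, with an SE that draws on the spread of all 201 tested genes. In the authors' deposited table Inhbe has a log2 fold change of 1.18 and an FDR of 2.20e-06, which placed it at rank 11 of the 332 by FDR. Inhbe was the only one of 24 listed genes of activin signalling that was analysed here, so its neighbour Inhbc, the receptor gene Acvr1c and the follistatins were not analysed here.

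Inhbe and Vldlr share a sequence feature although their levels differed in opposite directions. Both are known as genes that ATF4, a factor of the integrated stress response, can switch on, and ATF4 pairs with C/EBP proteins on elements of the form TGATGCAA. That motif was in 0.895% of all 32851 windows and in 2 of the 6 windows of these genes. In each, 30 bases around the match are printed 5′ to 3′, with the match in capitals. The Inhbe site is on the minus strand at chr10:127352011-127352040, its match beginning 181 bases before the RefSeq start, and the Vldlr site on the plus strand at chr19:27216809-27216838, its match beginning 200 bases before the second RefSeq start, both on GRCm38.p6.
Inhbe: catcctctttcTTGCATCAtgcatgtccac
Vldlr: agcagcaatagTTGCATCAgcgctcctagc
Both stretches lie within exons of the GENCODE M21 annotation, which begins Inhbe and a Vldlr transcript further upstream than these RefSeq starts. Of the 192 listed genes with a window, 5 held this motif. Besides Inhbe these were 4 with lower means in gigantol livers: Vldlr, Nupr1, G6pc and Vmn1r43. Vmn1r43 was low, at a mean of 0.795 CPM over all livers, and the FDR listed for it was 0.601. Of 23 stress response and stress-induced hormone genes listed for comparison, 4 were analysed here, Inhbe higher and Vldlr, Trib3 and Nupr1 lower. Inhbe, Vldlr and Nupr1 are counted both here and among the genes with the motif. Of all 332 listed genes 119 were higher and 213 lower, so nothing particular to the stress response is read from either count. Trib3, a pseudokinase made under nutrient stress, fell from 20.5 ± 2.83 to 9.46 ± 2.31 CPM, and Nupr1, a stress-induced nuclear protein, fell from 5.80 ± 2.95 to 1.21 ± 1.19 CPM (SD, n = 3 each). Their FDRs were 0.00135 and 0.0473, as the authors' deposited table lists them. Without gigantol replicate 1, the highest of its group, the gigantol mean of Nupr1 was 0.522 CPM.

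Adrb3 had the lowest mean CPM of the 6 genes in both groups and the largest ratio. It was at 2.97, 8.07 and 2.52 CPM in gigantol replicates 1, 2 and 3, which correspond to 63, 172 and 62 reads. In vehicle replicates 1, 2 and 3 it was at 0.824, 0.939 and 0.737 CPM, or 22, 24 and 17 reads. The groups did not overlap, gigantol replicate 2 stood far above the other 5 livers, and the vehicle livers varied by less (12.2%) than counting alone would give (21.9%). The means were 4.52 ± 3.09 and 0.833 ± 0.101 CPM (SD, n = 3 each), a ratio of 5.42, or 3.29 without gigantol replicate 2. By exact Poisson limits, which cover counting error only, the 95% interval of the lowest gigantol liver was 1.93 to 3.23 CPM and that of the highest vehicle liver 0.601 to 1.40 CPM. On the log2(CPM + 1) scale, which compresses such low levels, the limma difference was 1.46 ± 0.38 (SE), against a log2 fold change of 2.44 and an FDR of 0.000557 for Adrb3 in the authors' deposited table.

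The reads of Adrb3 have a neighbour on the other strand. In the GENCODE M21 annotation of GRCm38, the gene Gm45470, classed as antisense, lies within the span of Adrb3 on the opposite strand and shares 839 exon bases with it, 24.9% of the 3376 exon bases of Adrb3 and 11.0% of the 7624 of Gm45470. Gm45470 is itself in the table, and among all 332 genes these were the only listed pair on opposite strands that share exon bases. Gm45470 was at 3.30, 9.15 and 3.13 CPM in gigantol replicates 1, 2 and 3 and at 0.300, 0.274 and 0.347 CPM, or 8, 7 and 8 reads, in vehicle replicates 1, 2 and 3. It was thus highest in the same liver as Adrb3, and its groups did not overlap either. Its means were 5.19 ± 3.43 and 0.307 ± 0.037 CPM (SD, n = 3 each), a ratio of 16.9, or 10.5 without gigantol replicate 2, and the authors' deposited table gives Gm45470 a log2 fold change of 4.09 and an FDR of 5.21e-10.

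Set against Gm45470 liver by liver, Adrb3 was at 0.900, 0.882 and 0.805 times its level in gigantol replicates 1, 2 and 3 and at 2.75, 3.43 and 2.12 times its level in vehicle replicates 1, 2 and 3. The ratio was nearly the same in the 3 gigantol livers although their Adrb3 levels differed by 3.20 times. The libraries were made by a stranded method, per the labels, but the sources used here do not say whether strand was used in counting. How much of the Adrb3 value comes from reads of Gm45470, or the reverse, was not tested. For the other members the annotation shows little of this kind. The opposite-strand genes Lamb3 and Gm47200 span G0s2 and Inhbe without sharing any exon base with them, Hdgfl2 shares 17 exon bases with Plin4, and Cd36 and Vldlr have no overlapping gene.

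**Figure D3:**
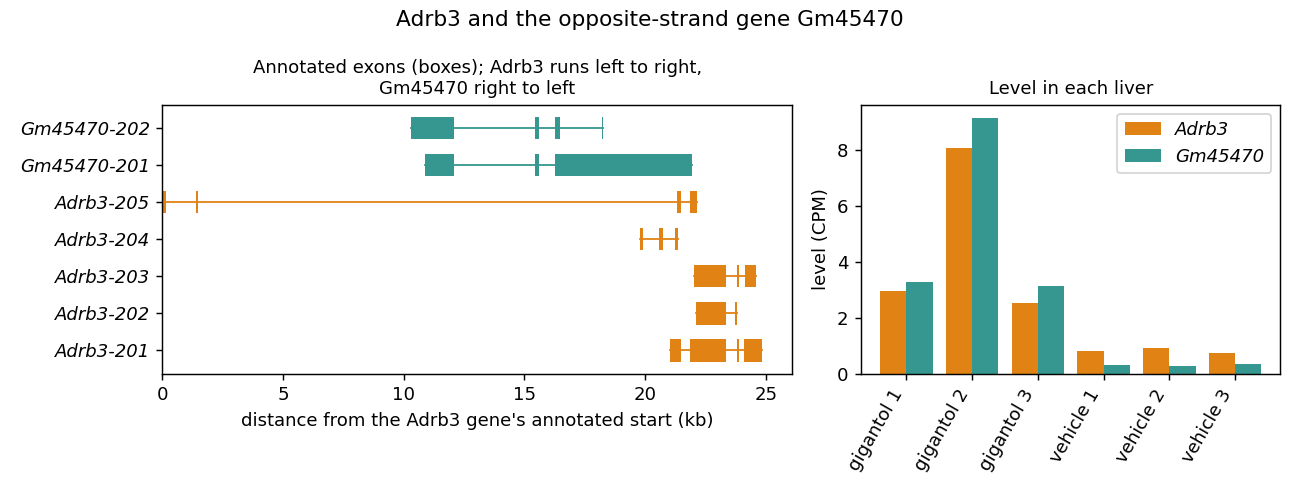
Left, annotated exons (boxes) of the transcripts of Adrb3 and Gm45470 by distance from the annotated start of Adrb3 in kb, with Adrb3 running left to right and Gm45470 right to left. Right, level in CPM of both genes in each of the 6 livers, with bars from 0: both are highest in gigantol replicate 2 (8.07 and 9.15 CPM), and Adrb3 exceeds Gm45470 in the vehicle livers only.

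Of 41 genes of β-adrenergic and cyclic AMP signalling listed for comparison, Adrb3 and Prkar2b were analysed here, 1 higher and 1 lower. Prkar2b, a regulatory subunit of protein kinase A, fell from 1.70 ± 0.355 to 0.530 ± 0.215 CPM (SD, n = 3 each). The authors' deposited table lists its FDR as 0.0468. The β1 and β2 receptor genes were not analysed here. Of 36 lipid uptake genes, Cd36, Vldlr and Lipg were analysed here. Of these, 0 had an FDR under 0.05 in the authors' deposited table, against 25.9% of the 332 in either direction. With so few genes, nothing is read from this count. Lipg, an endothelial lipase, was at 6.54, 1.74 and 3.01 CPM in gigantol replicates 1, 2 and 3 and at 1.20, 2.11 and 1.39 CPM in vehicle replicates 1, 2 and 3, with overlapping groups and an FDR of 0.370. Of 34 genes of fatty acid synthesis, triglyceride synthesis and VLDL export, 0 were analysed here.

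PPAR-linked lists hold several of the 6 genes, in both directions. Of 52 PPARα targets of liver, 8 were analysed here, 2 higher and 6 lower, with a median log2 fold change of −1.14 in the authors' deposited table, against −1.15 for all 332 listed genes, of which 119 were higher and 213 lower. G0s2, Cd36 and Vldlr are among the 8. With an FDR under 0.05 in the authors' deposited table, 1 of the 8 was higher, G0s2, and 3 were lower, Acot3, Txnip and Cyp4a12b, where 10.2% of the 332 were higher and 15.7% lower by that rule. Of 31 PPARγ targets of fat tissue, 4 were analysed here and all 4 belong to the genes described here: Plin4, G0s2 and Adrb3 higher and Cd36 lower. These lists were drawn up with earlier results of these data known, so the counts are not independent evidence of a direction. The table's own annotation places 6 rows in the PPAR signalling pathway, Plin4 and Cd36 with Cyp4a12b, Cyp4a31, Cyp4a32 and Cyp7a1, of which 2 were higher and 4 lower. As the table as a whole holds more lower than higher genes, nothing particular to PPAR is read from these counts. The table's annotation also assigns positive regulation of cold-induced thermogenesis to 4 rows. Cd36, lower in gigantol livers, and G0s2 and Adrb3, both higher, are 3 of them. Members share other terms too, and the same contrast chose them, so nothing is read from this count.

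Over the 6 livers the genes are described as 3 pairs. Likeness was taken as the root mean square difference between the deviations of 2 genes from their own means in log2(CPM + 1), over all 6 livers, so that a lower value is a closer match. Cd36 and Vldlr were 0.227 apart, with vehicle replicate 1 highest for both. Inhbe and Plin4 were 0.258 apart, with gigantol replicate 2 the lowest gigantol liver for both. G0s2 and Adrb3 were 0.382 apart, with gigantol replicate 2 the highest for both, which is the opposite order within the gigantol group from that of Inhbe and Plin4. For comparison, the median over the 195 other tested genes was 0.832 from Cd36 and 1.22 from Adrb3. Those genes differ in both directions, so this median does not measure how close a pair of the same direction is. Ranked among the other tested genes, Vldlr came at 4 from Cd36, Plin4 at 4 from Inhbe and G0s2 at 9 from Adrb3, so genes outside the 6 were nearer in each case. Since all listed genes were selected for a group difference, part of every match is that difference.

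**Figure D4:**
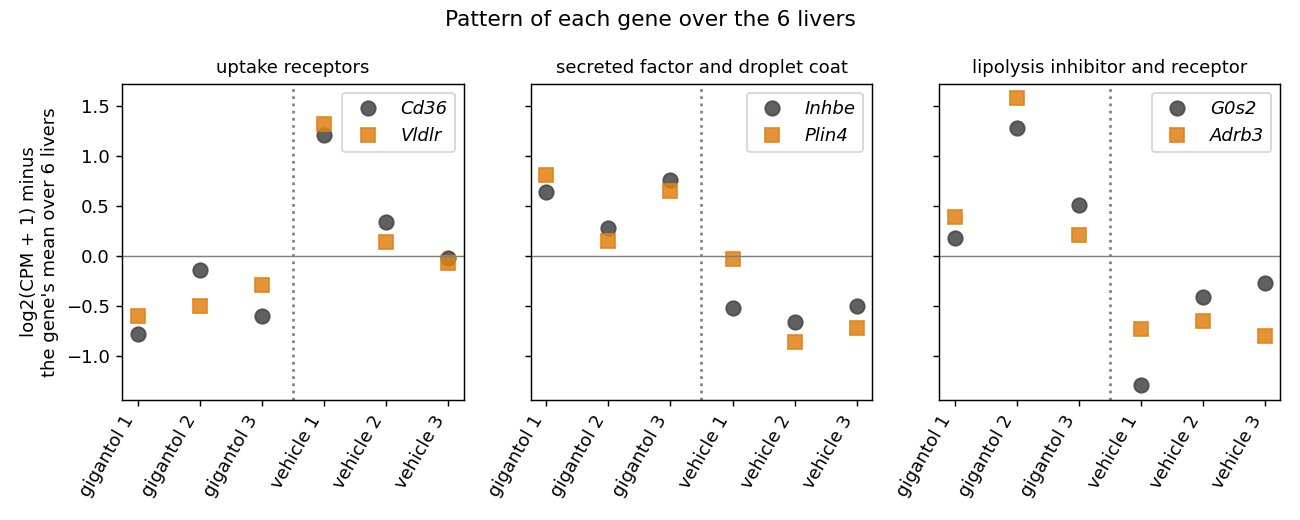
Deviation of log2(CPM + 1) from the gene's own mean over 6 livers (vertical axis) in each liver (horizontal axis), for 3 pairs of genes, with a dotted line between gigantol and vehicle livers. Cd36 and Vldlr peak in vehicle replicate 1, G0s2 and Adrb3 peak in gigantol replicate 2, and Inhbe and Plin4 are lower in gigantol replicate 2 than in the other gigantol livers.

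Of the other tested genes, those nearest to Cd36 were Osbpl3, an oxysterol-binding protein (0.153), and H2-T10, a class Ib histocompatibility gene (0.169). Nearest to Vldlr were Egr1, an immediate early transcription factor (0.144), and Arsg, a lysosomal sulfatase (0.157). These 4 genes also had their highest level in vehicle replicate 1, for example 27.4 CPM for Egr1, where vehicle replicates 2 and 3 had 9.03 and 10.1 CPM. Nearest to G0s2 were Slco1a1, an organic anion uptake transporter (0.184), and Selenbp2, a selenium-binding protein (0.256), both of which were highest in gigantol replicate 2, Slco1a1 at 455 CPM against 256 and 252 CPM. Nearest to Adrb3 were Slc22a21, a carnitine transporter family member (0.195), and Sult5a1, a sulfotransferase (0.220), and Gm45470 came seventh at 0.337. Nearest to Inhbe were Fam81a (0.177) and Gadd45b, a stress-inducible growth arrest gene (0.203), and nearest to Plin4 were Hyal1, a hyaluronidase (0.207), and Gm17167 (0.211).

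Divided by exon length, the levels could be ordered between genes. In vehicle livers G0s2 was highest at 12.0 ± 4.44 CPM per kb, followed by Cd36 at 8.65 ± 4.12, Inhbe at 3.24 ± 0.201, Vldlr at 1.40 ± 0.839, Plin4 at 1.02 ± 0.391 and Adrb3 at 0.247 ± 0.030 CPM per kb (SD, n = 3 each). The ranges of G0s2 and Cd36 overlapped, as did those of Vldlr and Plin4, while the other neighbours in this order were apart in all livers. In gigantol livers the order was G0s2 at 31.8 ± 13.5, Inhbe at 7.32 ± 1.23, Cd36 at 3.92 ± 0.991, Plin4 at 2.29 ± 0.556, Adrb3 at 1.34 ± 0.914 and Vldlr at 0.621 ± 0.081 CPM per kb (SD, n = 3 each). By the means, Inhbe stood above Cd36 and Plin4 and Adrb3 stood above Vldlr with gigantol, and each of these orders was the reverse in vehicle livers. Adrb3 shares 839 exon bases with Gm45470, and the part of Gm45470 reads in its level was not tested. In gigantol livers the ranges of Plin4 and Adrb3 overlapped, and those of the other neighbours did not. Exon lengths are from GENCODE M21 and range from 871 bases for G0s2 to 10068 for Vldlr. The transcripts used in liver may be shorter.

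**Figure D5:**
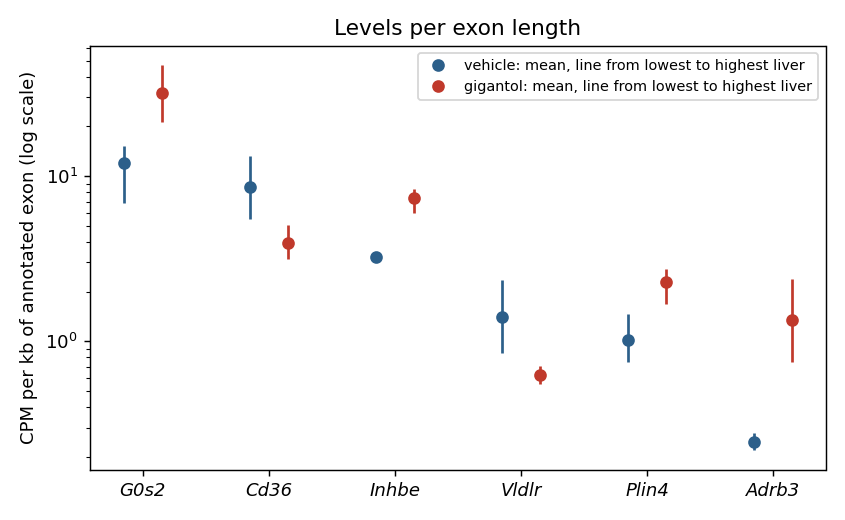
Level per exon length (CPM per kb, log scale) of the 6 genes, with the group mean as a point and a line from the lowest to the highest of 3 livers. G0s2 is highest in both groups (12.0 and 31.8 CPM per kb), and Inhbe and Cd36 exchange places between vehicle and gigantol.

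In bulk tissue, fewer cells of a type and less RNA per cell cannot be told apart, which bears on Cd36 in particular, since macrophages, platelets and endothelial cells carry it as well. Of 9 fat cell markers, 6 endothelial markers and 6 hepatocyte markers, 0 were analysed here, so a contribution of fat tissue to Adrb3 or Plin4 was not tested. That the samples are liver can be seen from Hamp, the hepcidin gene, at 88.7 to 514 CPM and C8b, a liver-made complement gene, at 146 to 414 CPM over the 6 livers. Of 7 macrophage markers Marco alone was analysed here, at 1.55 to 3.71 CPM in gigantol livers and at 8.76, 8.21 and 8.89 CPM in vehicle replicates 1, 2 and 3. Of 4 platelet markers Ppbp and Pf4 were, with a summed level of 1.38 to 2.59 CPM in gigantol and 5.55 to 11.6 CPM in vehicle livers, highest in vehicle replicate 1. Of 5 red blood cell markers 4 were, with sums of 347 to 632 and 552 to 1909 CPM, and of 6 stellate cell markers Lrat and Des were, with sums of 6.81 to 11.9 and 13.1 to 24.5 CPM. Both of these sums were lowest, among vehicle livers, in vehicle replicate 1, where Cd36 was highest. The part of these cell types in the levels of Cd36 and the other genes was not tested.

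By the coordinates of the table, whose mouse build is not named, Cd36 (ENSMUSG00000002944) lies on chromosome 5 from 17986688 to 18093799, Vldlr (ENSMUSG00000024924) on chromosome 19 from 27193884 to 27231631 and Plin4 (ENSMUSG00000002831) on chromosome 17 from 56407591 to 56416803. G0s2 (ENSMUSG00000009633) lies on chromosome 1 from 192954469 to 192955525, Inhbe (ENSMUSG00000047492) on chromosome 10 from 127184726 to 127190280 and Adrb3 (ENSMUSG00000031489) on chromosome 8 from 27715804 to 27740644. Vldlr is on the plus strand and the others on the minus strand. These are not GRCm38 coordinates: by gene ID 330 of the 332 genes matched GENCODE M21, 324 with the same span length but only 8 with the same coordinates.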

How the data were processed

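Stranded libraries were made from rRNA-depleted total RNA of 6 mouse livers, per the labels' protocols. The submitters' processing notes name fastp, HISAT2 and DESeq2 1.16.1 with no role, and GRCh38, a human build, although the gene IDs are mouse. No read counter or annotation was found in the sources used here. In all, the authors deposited 1 table with CPM, a log2 fold change, p-values and FDR for 332 selected genes, and the ratio of FDR to p shows an adjustment over 13192 genes. That the authors' unit is CPM was judged from the values, all nonzero ones being whole multiples of 1 step per library within 0.1 reads. Counts scaled by another factor per library would pass the same check, so the unit and the library depths rest on that judgement.

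From the deposited CPM, levels, means and SDs were computed, and limma 3.58.1 (R 4.3.3; trended, robust, two-sided) was fitted to log2(CPM + 1) of the 201 genes that reached 1 CPM in 3 or more libraries; 131 were not tested. It passed 111 (40 higher, 71 lower; 55.2%) at an adjusted p under 0.05, which is circular in a table selected on the same libraries. A gene outside the 6 is said to have fallen where its FDR in the deposited table was under 0.05. The limma fit was tested on simulated data. The exact Poisson limits and the step sizes came from Python 3.11.15. The replicates are livers of separate mice, per the series' design text.

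The rule for naming genes with values took the 6 members, the members of 5 lipid and signalling lists that the table holds, and the 2 nearest genes to each member; genes of the other lists were to be counted. The 6 genes and all 19 lists were chosen with earlier results of these data known; all other genes named as analysed, from Gm45470, Nupr1, Trib3, Hamp and C8b to the listed PPAR, marker and motif-bearing genes, and the 7 motifs were chosen after values were seen. Alternatives covered the pseudocount, the filter, each liver left out, a replicate block, the variance moderation and the authors' own values.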

Additional observations from a re-analysis of the deposited data

How the results depend on the processing

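All 6 genes kept the direction of their limma difference under every alternative run, 14 for each and 13 for Adrb3, which a mean of at least 5 CPM leaves out. This was fixed in advance and is no support. As the groups of all 6 genes did not overlap, neither a pseudocount nor leaving out 1 liver could reverse a direction. The filter, the replicate block and the variance moderation leave the difference itself unchanged, and the authors' values come from the same livers. Adrb3 alone moved by more than its replicate SD: 2.12 with a pseudocount of 0.1, 0.66 with a pseudocount of 5 and 2.44 in the authors' deposited table, since a larger pseudocount compresses low levels. The count of listed genes past an adjusted p of 0.05 was 111 by limma, 169 with no filter (all 332 tested), 24 with a mean of at least 5 CPM, and 32 to 136 with 1 liver left out: 57 without gigantol replicate 1, 60 without gigantol replicate 3, 32 without vehicle replicate 2 and 35 without vehicle replicate 3. The cause of these differences between livers was not tested. With the replicate number of the titles as a block the count was 128. Whether the numbers pair the livers cannot be told from 3 livers per group: same-numbered deviations correlated at 0.13, 0.15 and −0.10 over 201 genes. The planned edgeR and DESeq2 fits were not run, because whole reads could not be shown from the lowest values of every vehicle column. With a column's lowest value taken as 1 read, the low values were all whole in 5 libraries, but vehicle replicates 1 and 2 had only 90 and 89 of them, and 27.8% were whole in vehicle replicate 3, whose lowest value, 0.087 CPM, is 2 reads by the fitted step. The reads and Poisson limits given rest on the fitted step. Depth limits Adrb3 and Gm45470, with 17 to 24 and 7 to 8 reads in vehicle livers, and Prkar2b, with 6 to 16 reads in gigantol livers. Slc22a21 and Gm17167 were as low as 0.112 and 0.130 CPM in a vehicle liver, about the level of 3 reads.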
